A study of Mus musculus with 6 samples.

Results

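Expression of chemokines and their receptors was described for abdominal aortas of *Prdm16*SMKO mice, which lack *Prdm16* in vascular smooth muscle cells (VSMCs), against control mice. Rows of the deposited expression table were taken by gene symbol: the CC, CXC, CX3C and XC ligands, their receptors, and the atypical receptors *Ackr1* to *Ackr4*. The rule found 67 of the 55426 rows, with 61 different symbols, because *Ccl19*, *Ccl21a*, *Ccl21b*, *Ccl21c* and *Ccl27a* have more than 1 row each. Expression was given as TPM, a share of all transcripts in the library on a fixed scale, corrected for transcript length. Of the 67 rows, 35 rows with 31 symbols had a mean of at least 0.5 TPM over the 6 libraries and were tested. A further 23 rows were above 0 in at least 1 library with a mean below this minimum, and 9 rows were listed at 0 in all 6 libraries.

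The study sequenced polyadenylated RNA of the abdominal aorta from 3 control and 3 *Prdm16*SMKO male mice, labelled as strain C57BL/6J, in 6 libraries. *Prdm16*SMKO mice were *Prdm16* fl/fl animals carrying *Myh11*-CreERT2, a tamoxifen-inducible Cre recombinase expressed from a smooth muscle promoter with its cassette on the Y chromosome. Control mice were wild-type for *Prdm16* and also carried *Myh11*-CreERT2. The methods describe tamoxifen by gavage in corn oil at 75 mg/kg/day for 5 days in males aged 8 to 10 weeks, with aneurysm surgery 2 weeks later. No elastase was applied to the sequenced aortas, and the day of their collection is not given in the sources used here. No separation of cell types is described, so each library mixed RNA of VSMCs with that of any endothelial cells, fibroblasts and leukocytes in the tissue.

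Chemokines are small secreted proteins that guide leukocytes along concentration gradients through receptors coupled to G proteins. Inflammatory chemokines are induced by cytokines and draw monocytes, granulocytes and T cells into tissue, while homeostatic chemokines position cells in lymphoid organs and in the stroma. Atypical receptors bind the ligands without classical G protein signalling and take them up, which shapes the gradients. In the aortic wall, chemokines that act on *Ccr2* are known for bringing in monocytes during aneurysm formation.

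The targeted gene *Prdm16* had 33.4, 36.8 and 30.8 TPM in the control libraries, in the order of replicates 1 to 3 that all values follow here, and 20.8, 27.7 and 14.8 TPM in the *Prdm16*SMKO libraries. The groups did not overlap, and the log2 fold change of -0.70 had an adjusted p of 0.376 by limma. The sum of 8 VSMC markers, among them *Myh11* and *Acta2*, was 16870, 25621 and 15121 TPM in control libraries and 17888, 13881 and 11695 TPM in *Prdm16*SMKO libraries. Replicates 2 and 3 of *Prdm16*SMKO lay below every control library and replicate 1 lay within their range, 6 of the 8 markers had a lower mean log2 level and the median log2 fold change was -0.39. The part of this difference in the chemokine values was not tested. From 20332 to 22100 genes were above 0 TPM per library, mitochondrial genes took 15.8% to 27.4% of the TPM, and the rows at the 45S ribosomal RNA repeat held 15.5% to 31.4%. TPM keeps no read counts, so the depth behind single values is unknown. By the submitters' protocol, samples averaged 40 M read pairs.

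None of the 35 tested rows passed an adjusted p of 0.05, where limma called 56 of 15775 genes (0.355%). At an unadjusted p under 0.05 there were 10 chemokine rows, against 8.74% of all genes. Of these, 9 were higher in *Prdm16*SMKO aortas: *Ccl5*, *Ccl11*, *Ccl12*, *Ccl24*, *Ccl6*, *Ccl9*, *Cxcl10*, *Ccr2* and *Ackr4*. The same holds for 4.88% of all genes. A single row of *Ccl27a* was lower, as were 3.85% of all genes. Log2 fold changes were above 0 in 25 of the 35 rows and in 54.2% of all genes. Their median was 0.37 in the chemokine rows and 0.02 over all genes tested.

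The chemokine rows ranged from -1.48 to 2.01 on the log2 scale, and 11 of them reached a log2 fold change of at least 1, as did 2.68% of all genes. In 6 rows every *Prdm16*SMKO library lay above every control library, namely *Ccl5*, *Ccl12*, *Ccl24*, *Cxcl10*, *Ccr2* and *Ackr4*. Over all genes the groups failed to overlap in 12.8%, with the *Prdm16*SMKO libraries above in 7.02% and below in 5.76%. No chemokine row had all *Prdm16*SMKO libraries below. Fold changes were taken on log2(TPM + 0.5) and therefore understate the change of low genes. Low levels were the rule here, since 21 of the 35 rows had a mean under 2 TPM and 10 had a mean of at least 5 TPM. Without the repeated *Ccl19*, *Ccl21* and *Ccl27* rows, 22 of 26 rows were higher and the median was 0.68. Of the 9 tested rows of these repeated families, 3 were higher and 6 lower, with a median of -0.75.

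**Figure D1:**
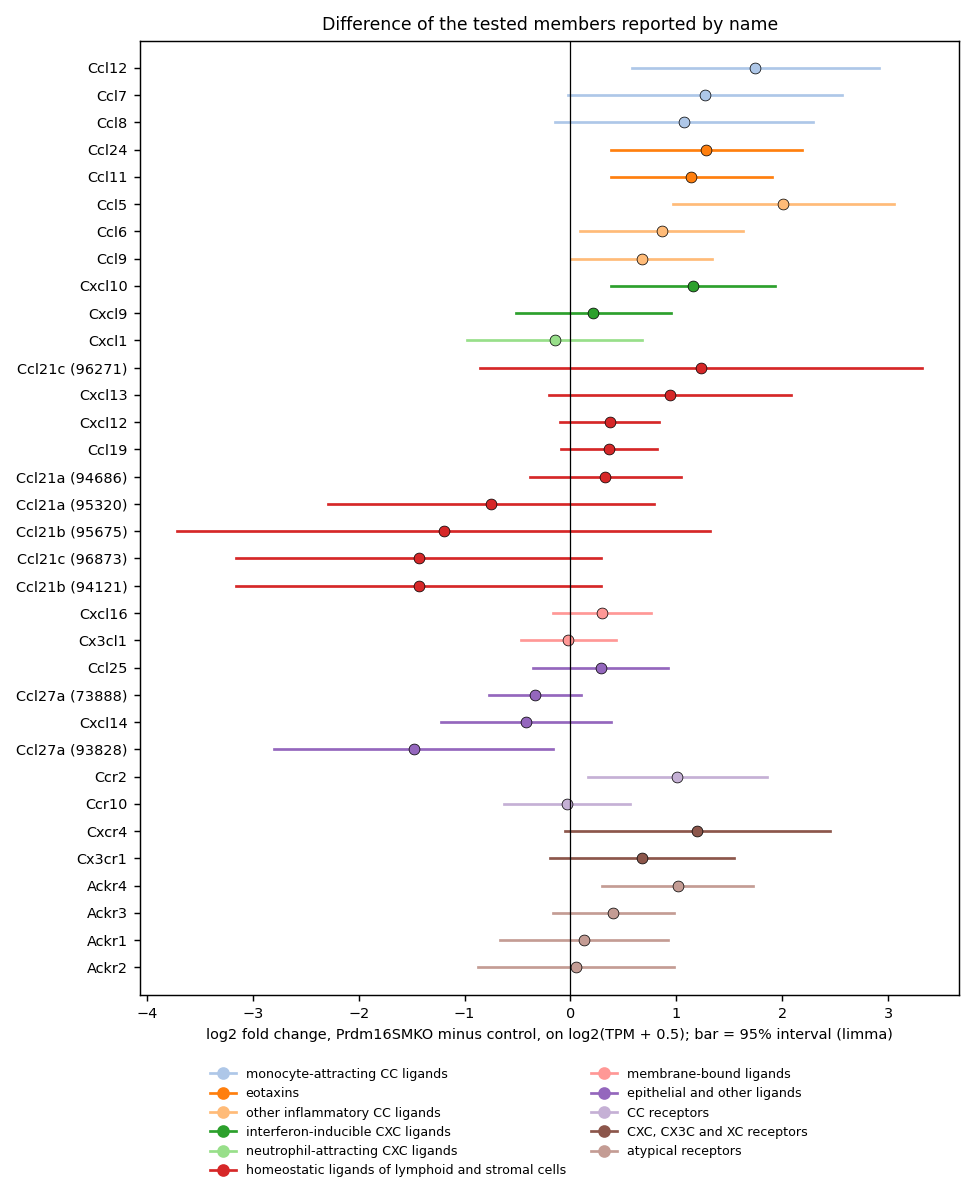
Log2 fold change of the tested chemokine and receptor rows reported by name, *Prdm16*SMKO minus control, on log2(TPM + 0.5), with bars for the 95% interval from limma and colours for the role of the gene. Numbers after a symbol are the last digits of the Ensembl identifier where a symbol has several rows; points range from -1.48 for a row of *Ccl27a* to 2.01 for *Ccl5*.

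Among the ligands that attract monocytes, 3 of 4 were tested, and all 3 had a higher mean in *Prdm16*SMKO aortas. *Ccl12*, which acts on *Ccr2* in the mouse, was at 1, 0 and 0 TPM in control libraries and at 1.01, 2.69 and 2.43 TPM in *Prdm16*SMKO libraries. The groups were separated by only the last deposited decimal, because control replicate 1 and *Prdm16*SMKO replicate 1 were nearly equal. The log2 fold change was 1.74 ± 0.51 (SE, n = 3 libraries per group) with an adjusted p of 0.317 by limma. It ran from 3.16 to 1.22 with pseudocounts of 0.1 and 1, since 2 control libraries were at 0, and was 0.82 with weights on the libraries.

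*Ccl7*, another ligand of *Ccr2*, was at 0.85, 0 and 0 TPM in control libraries and at 0.34, 1.61 and 2.18 TPM in *Prdm16*SMKO libraries. Its groups overlapped, with *Prdm16*SMKO replicate 1 below control replicate 1, and the log2 fold change of 1.27 had an adjusted p of 0.587 by limma. It was 0.40 with weights on the libraries and 2.50 with a pseudocount of 0.1. *Ccl8*, which in the mouse signals mainly through *Ccr8*, was at 1.46, 1.07 and 0.42 TPM in control libraries and at 0.74, 4.22 and 4.01 TPM in *Prdm16*SMKO libraries. Here too replicate 1 of *Prdm16*SMKO lay within the control range and replicates 2 and 3 lay above it. *Ccl8* had a log2 fold change of 1.07 with an adjusted p of 0.662 by limma, and the fold change was 0.65 with weights on the libraries and 1.71 without *Prdm16*SMKO replicate 1.

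*Ccl2*, the main monocyte attractant, stayed below the minimum. It was at 0, 0.24 and 0 TPM in control libraries and at 0.34, 0.52 and 0.76 TPM in *Prdm16*SMKO libraries. The groups did not overlap, at an exact permutation p of 0.1, the smallest that 3 against 3 libraries allow. With no minimum on expression, its adjusted p by limma was 0.506.

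Both tested eotaxins, the ligands of the eosinophil receptor *Ccr3*, were higher at an unadjusted p under 0.05, against 4.88% of all genes. *Ccl11*, eotaxin-1, was at 4.01, 3.45 and 6.16 TPM in control libraries and at 5.98, 13.2 and 13.9 TPM in *Prdm16*SMKO libraries. The means were 4.54 ± 1.43 and 11 ± 4.36 TPM (SD, n = 3), and *Prdm16*SMKO replicate 1 fell just below control replicate 3. The log2 fold change of *Ccl11* was 1.14 ± 0.33 (SE) with an adjusted p of 0.317 by limma. With weights on the libraries it was 1.24 with an adjusted p of 0.0397, the only value of a chemokine row below 0.05 in the 18 alternatives, whose adjusted p reached 0.626.

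*Ccl24*, eotaxin-2, was at 0.71, 0.59 and 0.40 TPM in control libraries and at 1.51, 4.15 and 1.33 TPM in *Prdm16*SMKO libraries. All *Prdm16*SMKO libraries lay above all control libraries, and replicate 2 was the highest. This gave a log2 fold change of 1.28 ± 0.40 (SE) with an adjusted p of 0.355 by limma. *Ccl26* was listed at 0 in every library, and *Ccr3* did not exceed 0.03 TPM. Of the eosinophil markers *Siglecf*, *Prg2*, *Epx* and *Il5ra* none reached the minimum, and their sum was between 0 and 0.98 TPM in every library.

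Of the 9 other inflammatory CC ligands, only 3 were tested. All 3 were higher at an unadjusted p under 0.05, against 4.88% of all genes. *Ccl5*, which attracts T cells and monocytes through *Ccr1* among other receptors, was at 0.56, 0 and 0 TPM in control libraries and at 3.76, 1.85 and 1.23 TPM in *Prdm16*SMKO libraries. The groups did not overlap, and here replicate 1 of *Prdm16*SMKO was the highest library. Its log2 fold change of 2.01 ± 0.46 (SE) was the highest of the chemokine rows, with an adjusted p of 0.153 by limma. Because 2 control libraries were at 0, the fold change was 3.52 with a pseudocount of 0.1 and 1.43 with a pseudocount of 1.

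*Ccl6* and *Ccl9* are mouse ligands of *Ccr1* that myeloid cells make in quantity. *Ccl6* was at 4.50, 5.00 and 3.67 TPM in control libraries and at 4.46, 12.3 and 10.3 TPM in *Prdm16*SMKO libraries. *Ccl9* was at 2.48, 2.06 and 1.64 TPM in control libraries and at 2.40, 3.43 and 5.30 TPM in *Prdm16*SMKO libraries. In both genes *Prdm16*SMKO replicate 1 lay inside the control range and the other *Prdm16*SMKO libraries lay above it. Log2 fold changes were 0.86 ± 0.34 for *Ccl6* and 0.67 ± 0.29 for *Ccl9* (SE), with adjusted p-values of 0.502 and 0.561 by limma. The log2 fold change of *Ccl9* was 0.42 with weights on the libraries and 0.41 without *Prdm16*SMKO replicate 3.

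*Ccl3* and *Ccl4*, made by activated macrophages and T cells, were below the minimum. *Ccl3* was at 0.18, 0 and 0 TPM in control libraries and at 0.37, 0.57 and 0.33 TPM in *Prdm16*SMKO libraries, without overlap (exact permutation p = 0.1). *Ccl4* was at 0, 0.17 and 0 TPM against 0.47, 0.24 and 0 TPM, with overlap. The dendritic cell products *Ccl17* and *Ccl22* did not exceed 0.36 TPM, and *Ccl1* and *Ccl20* were listed at 0 in all libraries.

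**Figure D2:**
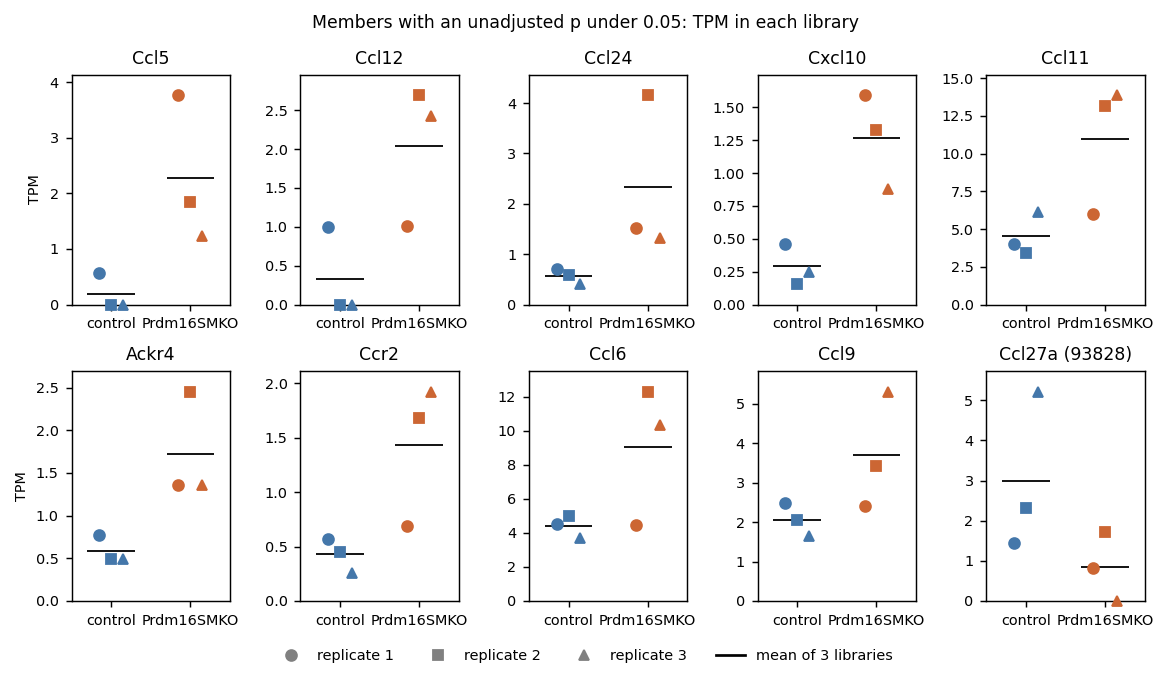
TPM in each of the 6 libraries for the 10 rows with an unadjusted p under 0.05, ordered by log2 fold change, with symbols for the replicate number and lines for the mean of 3 libraries; every vertical axis is linear, starts at 0 and has its own range. Circles of *Prdm16*SMKO, replicate 1, sit beside the control points in *Ccl11*, *Ccl6* and *Ccl9* and on top in *Ccl5* and *Cxcl10*.

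Of the CXC ligands induced by interferon, which act on *Cxcr3* of activated T cells and natural killer (NK) cells, *Cxcl10* and *Cxcl9* were tested. *Cxcl10* was at 0.46, 0.16 and 0.25 TPM in control libraries and at 1.59, 1.33 and 0.88 TPM in *Prdm16*SMKO libraries. The groups were separate and all *Prdm16*SMKO libraries took part. The log2 fold change was 1.16 ± 0.34 (SE) with an adjusted p of 0.319 by limma, and it stayed between 1.03 and 1.33 when any 1 library was left out. With pseudocounts of 0.1 and 1 it was 1.85 and 0.81. Exons of *Cxcl10* overlap those of *Art3* on the opposite strand. *Art3* was at 58.6, 78.7 and 41.2 TPM against 60.2, 52.3 and 53.1 TPM and had overlapping groups. The library kit is not one that marks strand, and the part of *Art3* reads in the *Cxcl10* values was not tested. *Cxcl9* was at 1.32, 1.46 and 0.94 TPM in control libraries and at 1.54, 0.92 and 2.28 TPM in *Prdm16*SMKO libraries, with overlap. Its log2 fold change was 0.22 with a 95% interval from -0.51 to 0.95. *Cxcl11* was at 0 in 4 of the 6 libraries.

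The promoter of *Cxcl10* is shown because the gene had an unadjusted p under 0.05 and its promoter held 2 of the 3 kinds of motif searched for, as did that of *Cxcl14*. The stretch lies at chr5:92348973-92349112 on the minus strand of GRCm38, from -223 to -84 bases relative to the start site in RefSeq. Capitals mark, from 5′ to 3′, the core of an interferon-stimulated response element (ISRE) and the matches to the NF-kB consensus, the last of which are 2 overlapping matches that start 1 base apart.
Cxcl10: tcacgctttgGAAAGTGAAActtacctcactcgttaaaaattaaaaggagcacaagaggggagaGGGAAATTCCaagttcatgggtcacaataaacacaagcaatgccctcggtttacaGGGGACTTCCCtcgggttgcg

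RefSeq promoters around the transcription start were found for 23 of the tested symbols. On either strand, the ISRE core GAAANNGAAA was in promoters of 3 symbols, *Ccl19*, *Cxcl10* and *Cxcl14*, and in 3.44% of the 32851 promoters of the table. The NF-kB consensus was in promoters of 5 symbols, *Ackr2*, *Ccl27a*, *Ccl9*, *Cxcl1* and *Cxcl10*, and in 8.46% of all. The interferon-gamma activated site TTCNNNGAA, known as GAS, was in that of *Cxcl14* and in 8.30% of all. These matches describe letters in the sequence and not binding.

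Ligands chosen by symbol that attract neutrophils through *Cxcr2* were low. *Cxcl1*, the only one of them tested, was at 1.89, 1.07 and 2.69 TPM in control libraries and at 1.7, 2.34 and 0.90 TPM in *Prdm16*SMKO libraries. The libraries of both groups were interleaved, and the log2 fold change was -0.15 with a 95% interval from -0.98 to 0.68. *Cxcl2* and *Cxcl5* did not exceed 0.43 TPM, *Cxcl3* and *Cxcl15* were listed at 0, and *Cxcr2* did not exceed 0.24 TPM.

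The homeostatic ligands included the row with the highest mean, *Cxcl12*, and others, such as *Cxcl13*, with a mean under 2 TPM. *Cxcl12*, which retains cells that carry *Cxcr4* and is made by stromal, smooth muscle and endothelial cells, was at 62.9, 65.5 and 63.2 TPM in control libraries and at 59.5, 96.0 and 98.9 TPM in *Prdm16*SMKO libraries. Control libraries were tightly grouped, *Prdm16*SMKO replicate 1 lay below all of them, and replicates 2 and 3 lay above. Means were 63.9 ± 1.41 and 84.8 ± 21.9 TPM (SD, n = 3), and the log2 fold change of 0.37 had an adjusted p of 0.722 by limma. It was 0.61 without replicate 1 and 0.24 without replicate 3 of *Prdm16*SMKO.

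*Ccl19*, which guides dendritic cells and T cells that carry *Ccr7*, was at 7.20, 7.66 and 5.70 TPM in control libraries and at 7.31, 10.4 and 9.26 TPM in *Prdm16*SMKO libraries. *Prdm16*SMKO replicate 1 again lay within the control range, and the log2 fold change was 0.37 with an adjusted p of 0.710 by limma. *Cxcl13*, which attracts B cells, was at 0.41, 0.53 and 0.12 TPM in control libraries and at 0.42, 2.82 and 0.85 TPM in *Prdm16*SMKO libraries. Replicate 2 of *Prdm16*SMKO stood highest, and its log2 fold change was 0.94 with an adjusted p of 0.704 by limma.

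*Ccl21*, the other ligand of *Ccr7*, is encoded in the mouse by several nearly identical genes, and 6 rows of *Ccl21a*, *Ccl21b* and *Ccl21c* were tested. The row of *Ccl21a* on chromosome 4 (ENSMUSG00000094686) was at 16.8, 23.3 and 22.9 TPM in control libraries and at 15.2, 31.7 and 37.3 TPM in *Prdm16*SMKO libraries, a log2 fold change of 0.33 with an adjusted p of 0.891 by limma. The row of *Ccl21a* on the scaffold JH584294.1 (ENSMUSG00000095320) was at 2.28, 8.47 and 13.1 TPM against 1.36, 3.46 and 9.12 TPM, a log2 fold change of -0.75. Both rows had overlapping groups and opposite signs.

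A row of *Ccl21b* (ENSMUSG00000094121) and a row of *Ccl21c* (ENSMUSG00000096873) had the same value in every library, 0, 0.49 and 4.47 TPM in control and 0 in all *Prdm16*SMKO libraries. A second row of *Ccl21b* (ENSMUSG00000095675) was at 3.90, 0 and 6.03 TPM against 0, 0 and 4.28 TPM. A second row of *Ccl21c* (ENSMUSG00000096271) was above 0 only in *Prdm16*SMKO replicate 3, at 6.01 TPM. Values of 0 and of several TPM thus alternated between libraries of the same group in these rows. Symbols are those deposited. The GENCODE M21 annotation gives ENSMUSG00000094121 as *Ccl21c*, and ENSMUSG00000096873 and ENSMUSG00000096271 as *Ccl21b*.

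The coding sequences of *Ccl21a* and *Ccl21b* on chromosome 4 differ at 2 of 402 positions, with 400 bases (99.5%) identical. The differences are T84A and C194T, counted from 1 at the first coding base with the base of *Ccl21a* first. Stretches of 40 bases around them, positions 64 to 103 and then 174 to 213, are shown for where the coding sequences differ, and the base that differs is in capitals.
Ccl21a: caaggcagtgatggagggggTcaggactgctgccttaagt
Ccl21b: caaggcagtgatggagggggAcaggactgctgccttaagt
Ccl21a: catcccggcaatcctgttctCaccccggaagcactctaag
Ccl21b: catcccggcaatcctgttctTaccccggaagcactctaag

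Of all windows of 25 bases in the *Ccl21b* transcript, 86.8% also occur in *Ccl21a*, and of the windows of 151 bases, the read length, 23.0% do. Single reads from the shared windows cannot be assigned to 1 of these genes, and the mates of a pair were not considered. With all rows of one family summed before the fit, the log2 fold change of *Ccl21a* was -0.068, between those of both *Ccl21a* rows.

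The ligands anchored in the membrane, *Cxcl16* and *Cx3cl1*, were both above 5 TPM in every library. *Cxcl16*, which also binds oxidized lipoprotein, was at 7.34, 8.33 and 6.14 TPM in control libraries and at 7.5, 11.2 and 8.56 TPM in *Prdm16*SMKO libraries. *Cx3cl1*, fractalkine, was at 6.38, 6.23 and 6.67 TPM in control libraries and at 5.30, 8.16 and 5.85 TPM in *Prdm16*SMKO libraries. Both genes had overlapping groups. Log2 fold changes were 0.29 for *Cxcl16* and -0.019 for *Cx3cl1*, with 95% intervals from -0.17 to 0.76 and from -0.47 to 0.43.

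*Ccl27a*, a ligand of *Ccr10* known from skin, had the second highest mean of the chemokine rows over all 6 libraries. In *Prdm16*SMKO libraries *Ccl21a* (ENSMUSG00000094686) averaged more, 28.1 TPM against 23.8 TPM for *Ccl27a*. The *Ccl27a* row on chromosome 4 (ENSMUSG00000073888) was at 34.3, 23.5 and 33.4 TPM in control libraries and at 25.2, 25.5 and 20.6 TPM in *Prdm16*SMKO libraries, a log2 fold change of -0.34 with an adjusted p of 0.724 by limma. Control replicate 2 lay within the *Prdm16*SMKO range. Its exons overlap those of *Il11ra1* on the opposite strand, which was at 161, 179 and 150 TPM in control libraries and at 126, 126 and 111 TPM in *Prdm16*SMKO libraries. The library kit is not one that marks strand, so reads of the shared bases cannot be told apart.

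The *Ccl27a* row on the scaffold JH584294.1 (ENSMUSG00000093828) was the only chemokine row lower at an unadjusted p under 0.05, and with the rows of each family summed there were 9 higher and 0 lower. It was at 1.45, 2.32 and 5.21 TPM in control libraries and at 0.81, 1.71 and 0 TPM in *Prdm16*SMKO libraries. The groups overlapped, and the log2 fold change of -1.48 ± 0.58 (SE) had an adjusted p of 0.501 by limma. It was -0.71 with weights on the libraries, -2.31 with a pseudocount of 0.1 and -0.89 without *Prdm16*SMKO replicate 3. Of the windows in *Ccl27b*, 81.3% of those of 25 bases and 21.8% of those of 151 bases occur in *Ccl27a*, so part of the single reads cannot be assigned, and *Ccl27b* was listed at 0 throughout. Of the other epithelial ligands, *Ccl25* had a log2 fold change of 0.28 and *Cxcl14* one of -0.42, both with overlapping groups. Exons of *Cxcl16* and *Ccl25* overlap those of *Zmynd15* and *Elavl1* on the opposite strand, and exons of *Ackr1* overlap those of *Cadm3* on the same strand.

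Of the 22 receptor rows 9 were tested, of which 8 had a log2 fold change above 0, with a median of 0.40. The median of the 26 tested ligand rows was 0.35, with 17 above 0. *Ccr2*, the receptor of monocytes for *Ccl2*, *Ccl7* and *Ccl12*, was at 0.57, 0.45 and 0.26 TPM in control libraries and at 0.69, 1.68 and 1.92 TPM in *Prdm16*SMKO libraries. The groups did not overlap, with replicate 1 of *Prdm16*SMKO close to control replicate 1. *Ccr2* had a log2 fold change of 1.01 ± 0.37 (SE) with an adjusted p of 0.462 by limma.

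*Ccr10*, the receptor of *Ccl27a*, was at 1.37, 1.52 and 1.20 TPM in control libraries and at 1.07, 1.32 and 1.61 TPM in *Prdm16*SMKO libraries. Its groups overlapped, and the log2 fold change was -0.03. Other CC receptors were below the minimum, *Ccr1* at 0.04 to 0.41 TPM and *Ccr7* at 0 to 0.22 TPM, and *Ccr6* was listed at 0.

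*Cxcr4*, the receptor of *Cxcl12*, was at 0.59, 1.07 and 0.47 TPM in control libraries and at 6.13, 0.77 and 1.88 TPM in *Prdm16*SMKO libraries. *Prdm16*SMKO replicate 1 stood far above the other libraries and replicate 2 lay inside the control range. The log2 fold change of 1.20 ± 0.55 (SE, adjusted p = 0.605 by limma) was 0.55 without replicate 1 and 1.75 without replicate 2 of *Prdm16*SMKO. *Cx3cr1*, the receptor of *Cx3cl1* on monocytes and macrophages, was at 0.24, 0.39 and 0.21 TPM in control libraries and at 1.06, 0.93 and 0.36 TPM in *Prdm16*SMKO libraries. Only *Prdm16*SMKO replicate 3 fell within the control range, and the log2 fold change was 0.68 with an adjusted p of 0.722 by limma.

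Receptors of lymphocytes were present in traces. *Cxcr3* was listed at 0 in all control libraries and was at 0.06, 0.13 and 0.17 TPM in *Prdm16*SMKO libraries, at an exact permutation p of 0.1. *Cxcr6* was at 0.28, 0.12 and 0.19 TPM against 0.23, 0.53 and 0.67 TPM, and *Cxcr5* at 0.12, 0.09 and 0.13 TPM against 0.16, 1.22 and 0.11 TPM. In the last, *Prdm16*SMKO replicate 2 alone stood apart, and it was also the highest library for the ligand *Cxcl13*. Exons of *Cxcr5* overlap those of *Bcl9l* on the opposite strand, and the part of *Bcl9l* reads in the *Cxcr5* values was not tested.

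All 4 atypical receptors were tested and all had a log2 fold change above 0. *Ackr4*, which takes up *Ccl19*, *Ccl21* and *Ccl25*, was at 0.77, 0.49 and 0.49 TPM in control libraries and at 1.36, 2.45 and 1.36 TPM in *Prdm16*SMKO libraries. The groups did not overlap, and the log2 fold change of 1.01 ± 0.31 (SE) had an adjusted p of 0.357 by limma. Exons of *Ackr4* overlap those of *Acad11* on the opposite strand. *Acad11* was at 13.0, 7.28 and 10.6 TPM against 8.90, 6.42 and 18.8 TPM, with overlapping groups. As for *Ccl27a*, reads of the shared bases cannot be told apart, and their part in the *Ackr4* values was not tested.

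*Ackr3*, which scavenges *Cxcl12*, was the highest receptor, at 8.44, 8.59 and 9.17 TPM in control libraries and at 8.42, 17.5 and 10.9 TPM in *Prdm16*SMKO libraries. As for *Cxcl12*, control libraries were close together, replicate 1 of *Prdm16*SMKO lay just below them and replicates 2 and 3 above. *Ackr3* had a log2 fold change of 0.40 with an adjusted p of 0.774 by limma, and it was 0.63 without replicate 1 and 0.13 without replicate 2 of *Prdm16*SMKO. *Ackr1*, found on venules and red cells, and *Ackr2*, which clears inflammatory CC ligands, had log2 fold changes of 0.13 and 0.05, and their signs turned when single libraries were left out.

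Set side by side, ligands and receptors of a pair differed in level by a large factor in some cases. In control libraries *Cxcl12* averaged 63.9 TPM, against 8.73 TPM for *Ackr3* and 0.71 TPM for *Cxcr4*. *Cx3cl1* averaged 6.43 TPM, against 0.28 TPM for *Cx3cr1*. *Cxcl16* averaged 7.27 TPM, against 0.20 TPM for *Cxcr6*. In these 3 pairs the ligand was far above the receptor carried by leukocytes. *Ccr2* averaged 0.43 TPM in control libraries, above its ligands *Ccl2*, *Ccl7* and *Ccl12* at 0.08, 0.28 and 0.33 TPM. In *Prdm16*SMKO libraries *Ccr2* averaged 1.43 TPM and these ligands 0.54, 1.38 and 2.04 TPM. The ligand *Xcl1* and its receptor *Xcr1* did not exceed 0.37 TPM.

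Many of these genes are neighbours, and the position of each was taken from GENCODE M21 on GRCm38. The cluster from *Ccl2* to *Ccl1* at chr11:82035571-82305690 holds 6 of them, of which *Ccl7*, *Ccl11*, *Ccl12* and *Ccl8* were tested, all with a log2 fold change above 1 and a median of 1.21. Its summed level was 7.32, 4.76 and 6.58 TPM in control libraries and 8.41, 22.2 and 23.2 TPM in *Prdm16*SMKO libraries. The groups did not overlap, but *Prdm16*SMKO replicate 1 was close to the control libraries.

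The cluster from *Ccl5* to *Ccl4* at chr11:83525778-83664683 holds 5, of which *Ccl5*, *Ccl9* and *Ccl6* were tested. Its sum was 7.72, 7.23 and 5.31 TPM in control libraries and 11.5, 18.4 and 17.2 TPM in *Prdm16*SMKO libraries, without overlap. The clusters of *Cxcl9* to *Cxcl11* and of *Cxcl5* to *Cxcl2* on chromosome 5 summed to 1.19 to 3.45 TPM and to 0.90 to 3.12 TPM. Reads of similar genes within a cluster may have been split between them.

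The *Prdm16*SMKO libraries differed from each other in these genes. Replicate 1 lay above every control library in 11 of the 35 tested rows, replicate 2 in 21 and replicate 3 in 22. Over all genes the order was the reverse, with 29.5%, 28.5% and 20.5%. Summed over the 67 rows, the level was 183, 183 and 208 TPM in control libraries and 177, 279 and 274 TPM in *Prdm16*SMKO libraries. The sum of *Prdm16*SMKO replicate 1 was the lowest of the 6. Without it, 16 rows had an unadjusted p under 0.05 and the median log2 fold change was 0.58, while the number called was 0. Without control replicate 3 the number at an unadjusted p under 0.05 was 6, also with 0 called.

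**Figure D3:**
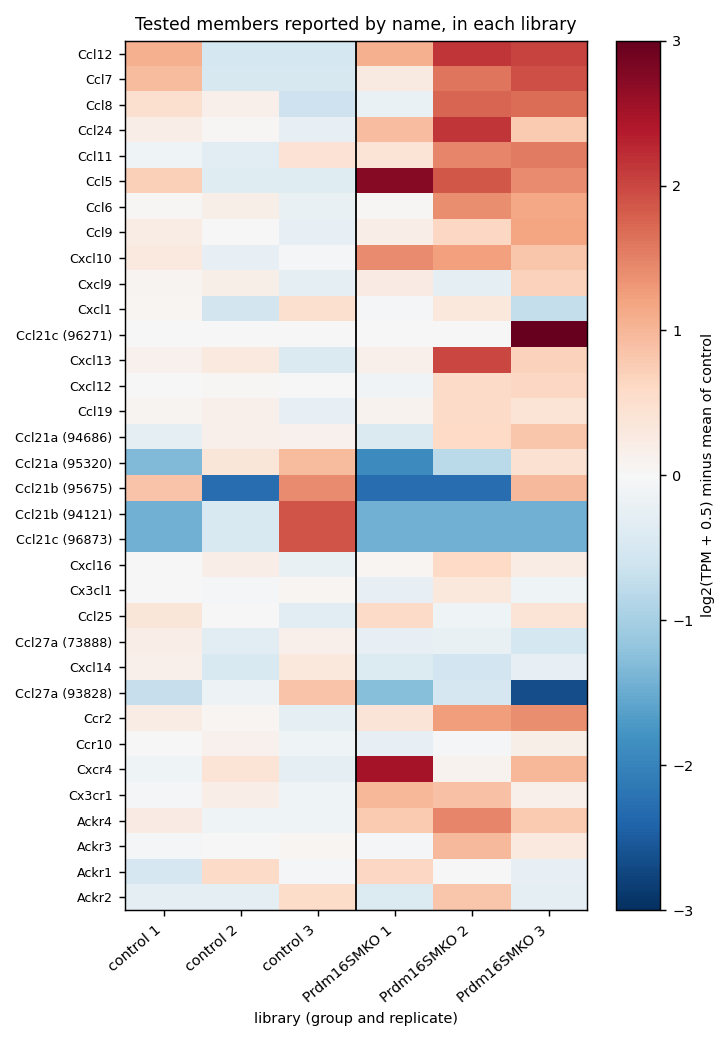
Expression of the tested chemokine and receptor rows reported by name in each library, as log2(TPM + 0.5) minus the mean of the control libraries, with rows ordered by role and the colour scale limited to 3 in each direction. *Prdm16*SMKO replicates 2 and 3 are above the control mean in all 8 inflammatory CC ligands at the top, and replicate 1 is darkest in *Ccl5* and *Cxcr4*.

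The markers of leukocytes were measured in the same libraries. In bulk tissue, more cells of a type and more RNA per cell cannot be told apart. All 14 macrophage markers were tested, 12 were higher in *Prdm16*SMKO aortas and 7 of these had an unadjusted p under 0.05, against 54.2% and 4.88% of all genes. Their sum was 174, 159 and 120 TPM in control libraries and 170, 290 and 221 TPM in *Prdm16*SMKO libraries. *Prdm16*SMKO replicate 1 lay among the control libraries, as it did for *Ccl8*, *Ccl6* and *Ccl9*. None of the 14 was called at an adjusted p under 0.05.

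Monocyte markers, of which 3 of 5 were tested, summed to 1.87, 3.24 and 3.18 TPM against 6.23, 8.36 and 5.18 TPM, without overlap of the sums. Of the 3 tested, 2 were higher at an unadjusted p under 0.05, against 4.88% of all genes. The third, *Ly6c2*, had a log2 fold change of 0.04 with overlapping groups. The sums of the T cell markers, 4.16, 1.40 and 0.90 TPM against 5.48, 4.60 and 8.12 TPM, were also without overlap. Of these 9 markers 3 were tested, with *Lck* alone at an unadjusted p under 0.05. Dendritic cell markers, of which 4 of 5 tested were higher, summed to 13.4 to 19.6 TPM in control libraries and 22.9 to 23.8 TPM in *Prdm16*SMKO libraries. *Zbtb46* and *Fscn1* made up most of this sum in every library. Each of the 5 tested had overlapping groups, and 0 of them had an unadjusted p under 0.05. NK cell markers, of which 1 of 5 was tested, summed to 0.15, 0.11 and 0.47 TPM in control libraries and to 3.10, 2.58 and 0.20 TPM in *Prdm16*SMKO libraries, where replicates 1 and 2 stood above and replicate 3 lay within the control range. B cell markers summed to 3.54, 0.75 and 1.02 TPM against 4.33, 2.50 and 1.63 TPM, with overlap. Neutrophil markers, of which 2 of 8 were tested, summed to 0.67 to 1.43 TPM against 1.56 to 7.52 TPM, without overlap of the sums. Both tested, *S100a9* and *Csf3r*, had overlapping groups, and *Ly6g* was listed at 0 throughout.

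Of the 5 mast cell markers, the proteases *Mcpt4*, *Cma1*, *Tpsb2* and *Cpa3* were higher and *Kit* was lower, each at an unadjusted p under 0.05. Over all genes, 4.88% were higher and 3.85% were lower at this p. The sum of the mast cell markers was 21.6, 20.1 and 13.4 TPM against 14.7, 25.9 and 27.3 TPM, of which *Kit* made up most in control libraries. Markers of cells beyond the leukocytes also differed between libraries. Erythroid markers summed to 1915, 664 and 853 TPM in control libraries and to 2945, 11922 and 1353 TPM in *Prdm16*SMKO libraries, where replicate 2 stood apart. Adipocyte markers reached 531 TPM in *Prdm16*SMKO replicate 3, against 70.5 to 181 TPM elsewhere. Endothelial markers were at 197 to 259 TPM in control libraries and at 225, 440 and 268 TPM in *Prdm16*SMKO libraries. Lymphatic endothelial markers were at 10.5 to 18.8 TPM and fibroblast markers at 1010 to 1807 TPM, both with overlap, and mesothelial markers did not exceed 0.64 TPM. Of the tested markers, 7 of 8 endothelial, 4 of 5 lymphatic and 7 of 8 fibroblast ones were higher, against 54.2% of all genes. The exceptions, *Erg*, *Pdpn* and *Col1a1*, were lower without overlap, as were 5.76% of all genes. The part of these cells in the chemokine values was not tested.

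**Figure D4:**
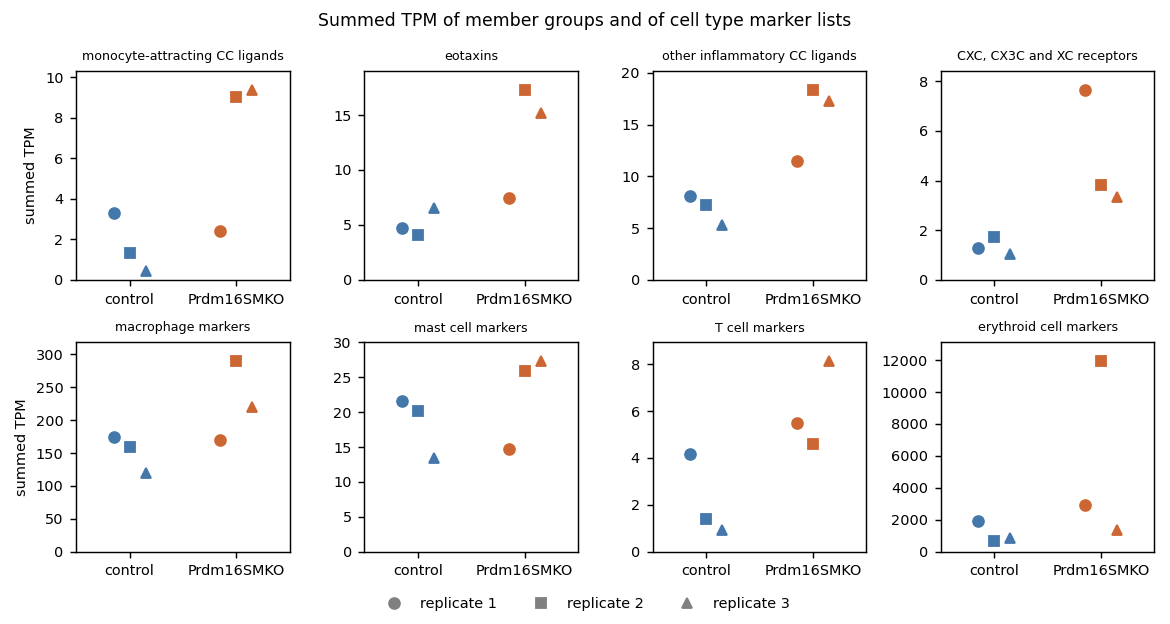
Summed TPM in each library of 4 groups of chemokine genes in the upper row and of the markers of 4 cell types in the lower row, with symbols for the replicate number; each vertical axis is linear, starts at 0 and has its own range. The ligands that attract monocytes, the eotaxins and the macrophage markers are lower in *Prdm16*SMKO replicate 1 than in replicates 2 and 3, while the CXC, CX3C and XC receptors are highest in replicate 1, at 7.66 TPM.

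Genes around the chemokine system were counted from 3 lists, and 0 of their 57 tested genes were called by limma, with 10 at an unadjusted p under 0.05, against 0.355% and 8.74% of all genes. Of 34 tested genes for signalling from chemokine receptors, 26 had a log2 fold change above 0, with a median of 0.28, and 5 were higher at an unadjusted p under 0.05, against 54.2% and 4.88% of all genes. *Arrb2*, a beta-arrestin that internalizes receptors, was at 5.68, 8.40 and 5.52 TPM in control libraries and at 11.2, 10.1 and 9.74 TPM in *Prdm16*SMKO libraries. Its groups did not overlap, and the log2 fold change of 0.65 had an adjusted p of 0.355 by limma. The other 4 were *Rgs2*, which dampens G protein signalling, the kinase *Ptk2b*, and the leukocyte integrin chains *Itgal* and *Itgb2*, with log2 fold changes of 0.72, 0.74, 1.01 and 0.96. All *Prdm16*SMKO libraries lay above all control libraries in 7 of the 34 genes, against 7.02% of all genes. These 5 genes, which were picked by their p in the same libraries, were among the 7.

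The list for chemokine induction held inducers and also inhibitors such as *Tnfaip3*. Of its 18 tested genes, 11 had a log2 fold change above 0, against 54.2% of all genes, with a median of 0.05. *Irf1*, an interferon-induced transcription factor, was at 13.0, 11.8 and 11.1 TPM in control libraries and at 16.1, 17.5 and 15.9 TPM in *Prdm16*SMKO libraries, without overlap. The log2 fold change of *Irf1* was 0.45 with an adjusted p of 0.421 by limma. *Tnfaip3*, an inhibitor of NF-kB signalling, had a log2 fold change of 0.50.

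*Nfkbiz*, a cofactor of NF-kB at some cytokine genes, went the other way, at 13.5, 11.8 and 11.6 TPM in control libraries and at 5.07, 7.45 and 6.92 TPM in *Prdm16*SMKO libraries. Its log2 fold change was -0.89 ± 0.19 (SE) with an adjusted p of 0.119 by limma. With weights on the libraries, *Arrb2* and *Nfkbiz* passed an adjusted p of 0.05. The cytokines that induce chemokines stayed below the minimum. *Il1b* was at 0.08, 0.06 and 0 TPM against 0.08, 0.84 and 0.08 TPM, *Tnf* did not exceed 0.23 TPM and *Il6* did not exceed 0.43 TPM, all with overlap. *Ifng* and *Il1a* were listed at 0 in every library.

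Genes of the chemokine system with symbols outside the rule, not all of them chemokines, were counted apart. Of 5 tested, 4 had a log2 fold change above 0, against 54.2% of all genes. The platelet chemokine *Pf4* was at 18.3, 7.21 and 9.86 TPM in control libraries and at 12.8, 38.3 and 17.2 TPM in *Prdm16*SMKO libraries, with overlap. *Ppbp*, also stored in platelets, was at 4.90, 0.33 and 5.28 TPM against 2.25, 35.9 and 3.49 TPM. The log2 fold changes of 0.87 and 1.32 were 0.42 and 0.16 without *Prdm16*SMKO replicate 2. Both were highest in *Prdm16*SMKO replicate 2, the library with the highest erythroid markers. *Rarres2*, which encodes chemerin, was at 263, 258 and 223 TPM against 205, 194 and 178 TPM, without overlap and at an unadjusted p under 0.05, with a log2 fold change of -0.37. *Ccrl2*, an atypical receptor of chemerin, had a log2 fold change of 0.01, which was -0.002 with size factors and -0.061 with quantile normalization.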

How the data were processed

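RNA of 6 abdominal aortas was sequenced as pairs of 151 bp reads. The authors deposited TPM values for 55426 rows, rounded to 2 decimals; 28867 rows were at 0 in every library. The submitters' processing notes name bcl2fastq, cutadapt 2.3, FastQC 0.11.8, STAR 2.7.8a, RSEM 1.3.3, MultiQC 1.7 and GRCm38, with no annotation given in the sources used here. RSEM shares reads among similar genes, which bears on the repeated *Ccl19*, *Ccl21* and *Ccl27* rows. No 2 libraries were identical (identical pairs: 0).

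Groups came from the sample titles. Log2(TPM + 0.5) of the 15775 rows with a mean of at least 0.5 TPM was compared by limma 3.58.1 in R 4.3.3 with variances that follow a trend, two-sided, with Benjamini-Hochberg adjustment over all these genes. Genes under an adjusted p of 0.05 were counted as called. Exact permutation tests were two-sided. On simulated data for this comparison of 15775 genes, 37 of 200 genes with a log2 fold change of 1 and 164 of 200 with one of 2 were called, with 1 and 10 unchanged genes. With no gene changed, 0 were called.

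The chemokine rows and all lists were chosen with earlier results of these data known. A few genes stand in the counts, medians and sums only and are not reported here by name. Values are given per library for *Ccl2*, *Ccr2*, *Ccl11*, the 10 highest rows, the 10 with the smallest p and members of fixed ligand and receptor pairs. Of the pathway lists, the genes with the smallest p and a fixed set (*Il1b*, *Tnf*, *Il6*, *Irf1*, *Pf4*, *Ccrl2*) are named. Others, such as *Ccl8*, *Ccr10*, *Ackr1*, *Itgal*, *Itgb2* and *Tnfaip3*, and the grouping into genomic clusters, were chosen after their values were seen. Fits were repeated under 18 alternatives, 17 of them planned: pseudocounts of 0.1 and 1, no minimum or one of 2 TPM, size factors, quantile normalization, rescaling without mitochondrial and 45S rows, no trend, robust variances, library weights, a replicate block, and each library left out in turn. The sum over repeated rows was added after the data were seen. The labels give the libraries of a group as separate samples, and p-values measure the spread between them. Positions came from GENCODE M21 and promoters from RefSeq on GRCm38.p6. Tables and plots were made in Python 3.11.15 with pandas 2.3.3, numpy 2.4.6 and matplotlib 3.10.9, and exact tests with scipy 1.17.1.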

Additional observations from a re-analysis of the deposited data

How the results depend on the processing

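With weights on the libraries 1 chemokine row was called and 2 genes of the signalling and induction lists; under each of the other 17 alternatives, the replicate block among them, both numbers were 0. The 10 rows at an unadjusted p under 0.05 became 2 of 14 with a minimum of 2 TPM, 8 with a replicate block, and 6 to 16 when single libraries were left out. The replicate numbers did not pair the libraries, whose deviations from the group means correlated at -0.13, -0.11 and 0.019 for the same number, so the block rests on a shared number only. The median log2 fold change of the chemokine rows stayed between 0.26 and 0.58 under all alternatives. The count over all genes, 56, was 494 with library weights, 10 with no minimum, 33 without a variance trend, 129 with quantile normalization (46 higher, 83 lower), 4 with a replicate block, 123 after rescaling without mitochondrial and 45S rows, 112 with robust variances, 153 with size factors (60 higher, 93 lower, against 29 and 27), and 5 to 61 with 1 library left out; the cause was not tested.

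Of 760 values for single genes, 734 kept sign and side of the threshold and 3 passed it with library weights (*Ccl11*, *Arrb2*, *Nfkbiz*). The sign turned in 23, none of them of a row with an unadjusted p under 0.05, and 25 of the 35 chemokine rows kept their sign throughout. With library weights *Ccl21a* (ENSMUSG00000095320) became 0.31, *Cx3cl1* 0.019 and *Ccl25* -0.067. With copies summed *Ccl21a* (ENSMUSG00000094686) became -0.068. With quantile normalization *Ackr2* became -0.068 and *Ccrl2* -0.061, and with size factors *Ccrl2* became -0.0020. With single libraries left out, the log2 fold change ran from -0.020 to 0.46 for *Cxcl9*, -0.42 to 0.13 for *Cxcl1*, -0.19 to 0.099 for *Cx3cl1*, -0.14 to 0.076 for *Ccr10*, -0.13 to 0.41 for *Ackr1*, -0.34 to 0.33 for *Ackr2* and -0.18 to 0.22 for *Ccrl2*. With 3 libraries per group and TPM of unknown depth, low rows carry counting error that could not be estimated, and in the simulation most changes of 1 on the log2 scale were not called.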
